A study of Mus musculus with 9 samples.

Results

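The transcription factor genes that steer or mark helper T cell lineages (6 members, chosen by name: Gata3, Irf4, Maf, Rora, Foxp3 and Ikzf2) were followed in RNA of LLC1 cells that had been kept with T cells, and all 6 members were found among the 19305 genes of the deposited tables. LLC1 is the Lewis lung carcinoma line of mouse. Its cells were kept in contact with artificially made T cell subsets labelled Th9, Th17 or Th0, in direct touch for 24 h with as many T cells as LLC1 cells, and RNA was then taken from what remained once CD4-positive cells had been sorted out. There were 3 libraries each of LLC1 with Th9, LLC1 with Th17 and LLC1 with Th0, and no group of LLC1 cells alone is used here, so every group had met T cells. The labels give neither the strain that the T cells came from, nor how the subsets were made, nor whether replicates came from cultures of their own. The p-values therefore describe the spread between these libraries, which may be technical.

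Naive CD4-positive T cells become helper subsets under cytokines, and each subset is held in place by a few transcription factors. GATA3 directs the type 2 programme and takes part in the Th9 programme, for which IRF4 is needed as well. IRF4 also serves Th17 cells, plasma cells and dendritic cells. MAF (c-Maf) raises interleukin 10 and interleukin 21 in several subsets, RORA takes part in the Th17 programme, FOXP3 defines regulatory T cells, and IKZF2 (Helios) is found in many of these. Several of these genes, such as Rora and Maf, are also expressed outside the immune system.

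Values are read counts per gene divided by a size factor of the library and rounded, called normalized counts below. Th9 and Th0 stand in 1 table and Th17 and the same Th0 libraries in another, each normalized on its own, so each comparison stayed in its table. Libraries held about 12718971 to 17504907 assigned reads, estimated from the steps between the values. Th0 replicate 1 stood apart: 31.1% of its total fell on mt-Rnr1, mt-Rnr2 and Gm26917, against 14.9% to 21.8% in the other 8 libraries. Cancer line genes Vim and Krt18 were high in every library, whereas the epithelial markers Epcam and Cdh1 and the lung marker Nkx2-1 were not listed. Krt8, a keratin of the same list of cancer line genes, had 956, 1050 and 1255 normalized counts in Th9, against 1688, 2470 and 2282 in Th0 (log2 fold change -0.97, limma-trend adjusted p = 3.2e-04). It was the 1 gene of 5 tested on that list that was called lower with Th9, beside 11.9% of all genes. None was called with Th17 (0 of 6), where 0.39% of all genes were called lower. Without Th0 replicate 1, 4 of 6 were called lower with Th9 and 2 of 6 with Th17. Over all genes, 2742 of 14366 and 1378 of 14209 were then called lower. The part of the Krt8 shift in the members' values was not tested.

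The start regions of Gata3, Irf4 and Rora, which were higher with Th9, are shown first, with that of Foxp3 beside them. Motifs for several of the 6 factors were sought there. Maf and Ikzf2, also higher with Th9, had no sequence among those used. Sequences are RefSeq promoters of build GRCm38.p6, from 250 bases before to 50 bases after an annotated start, and 4 of the 6 members matched that table. Capitals mark matches on either strand to 6 short motifs. These were AGATAA for factors of the family of Gata3, TGANTCA for AP-1, AGGTCA for ROR receptors, TGCTGA as the core of a MAF site, and the IRF and NF-kB motifs, each with a few free bases inside. The spans are chr2:9878551-9878850 on the minus strand for Gata3, chr13:30748983-30749282 on the plus strand for Irf4, chr9:68653536-68653835 on the plus strand for Rora and chrX:7580233-7580532 on the plus strand for the second annotated start of Foxp3. The Gata3 start and this Foxp3 start lie inside the spans that the tables give for these genes.
Gata3: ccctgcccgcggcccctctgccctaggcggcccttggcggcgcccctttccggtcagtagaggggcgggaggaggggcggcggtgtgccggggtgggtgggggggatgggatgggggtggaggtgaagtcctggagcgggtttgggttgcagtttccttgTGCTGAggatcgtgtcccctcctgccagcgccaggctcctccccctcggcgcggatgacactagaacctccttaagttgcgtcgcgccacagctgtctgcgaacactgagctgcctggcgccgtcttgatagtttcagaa
Irf4: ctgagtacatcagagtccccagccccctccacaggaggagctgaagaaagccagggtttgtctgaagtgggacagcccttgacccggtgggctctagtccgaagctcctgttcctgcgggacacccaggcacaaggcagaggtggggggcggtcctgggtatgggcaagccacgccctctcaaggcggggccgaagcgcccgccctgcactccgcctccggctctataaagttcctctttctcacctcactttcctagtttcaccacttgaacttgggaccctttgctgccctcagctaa
Rora: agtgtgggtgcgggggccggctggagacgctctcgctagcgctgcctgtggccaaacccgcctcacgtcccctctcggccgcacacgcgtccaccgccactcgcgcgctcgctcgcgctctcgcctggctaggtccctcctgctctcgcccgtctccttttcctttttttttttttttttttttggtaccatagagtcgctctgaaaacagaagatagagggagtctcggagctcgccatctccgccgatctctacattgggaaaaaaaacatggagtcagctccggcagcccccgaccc
Foxp3: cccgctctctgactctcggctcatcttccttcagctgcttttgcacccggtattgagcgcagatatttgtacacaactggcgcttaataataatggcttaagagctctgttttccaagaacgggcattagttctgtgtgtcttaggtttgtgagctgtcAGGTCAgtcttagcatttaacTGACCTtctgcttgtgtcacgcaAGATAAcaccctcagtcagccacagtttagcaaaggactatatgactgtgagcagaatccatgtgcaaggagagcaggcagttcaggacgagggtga

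The Gata3 region held 1 match, a MAF core 90 bases before the start, and the Irf4 and Rora regions held no match to any of the 6 motifs. The second Foxp3 region held 1 GATA match and 2 ROR matches, and its first annotated region, not printed, held 1 MAF core. Over all 32851 promoters of the table, 19.5% held the MAF core, 16.3% the ROR motif, 11.2% the GATA motif, 7.81% the AP-1 motif, 4.79% the NF-kB motif and 3.44% the IRF motif. The GC content was 67.3% for Gata3, 61% for Irf4, 60.3% for Rora and 47.7% for the second Foxp3 region. A match is a string of letters and not a bound site, and no match says only that these letters are not in this window.

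With Th9 against Th0, Gata3, Irf4, Maf, Rora and Ikzf2 were higher and Foxp3 did not pass the test. The rises ran from 2.27-fold for Ikzf2 to 6.42-fold for Gata3. The test was limma-trend on log2(value + 1) of all 14475 genes with a mean of at least 10 in that table, and a gene was called at a Benjamini-Hochberg adjusted p below 0.05. It called 25.2% of all genes (13.4% higher, 11.9% lower), which is the level that the count of 5 of 6 members stands beside. Gata3, Irf4 and Maf averaged 3 to 5 in Th0 and passed the filter on low values only through the Th9 libraries, so that count is no support for the members as a group. Genes of T cells rose in the same Th9 libraries, as described below.

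**Figure D1:**
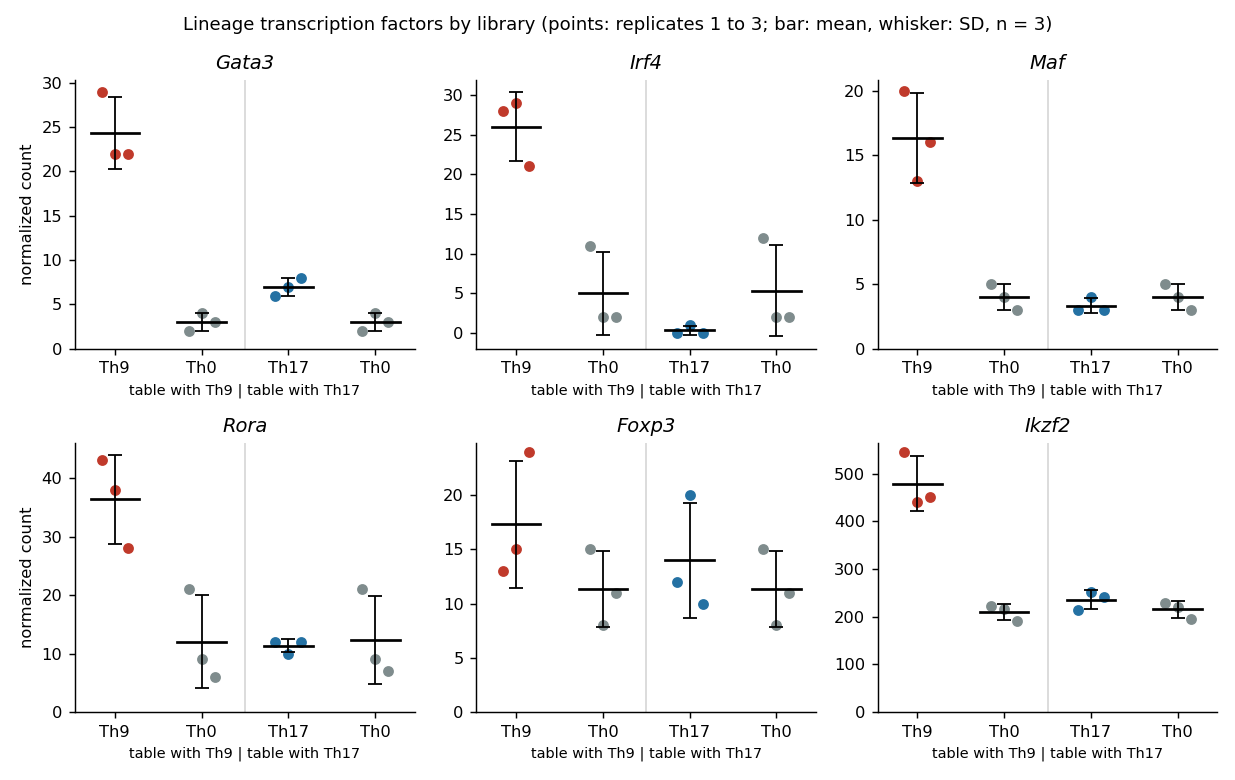
Normalized counts (vertical axis) of the 6 members in each library (points, replicates 1 to 3), with the mean and SD of 3 libraries, for Th9 and Th0 in the table with Th9 and for Th17 and Th0 in the table with Th17. All Th9 points of Gata3, Irf4, Maf, Rora and Ikzf2 lie above the Th0 points, the Foxp3 groups overlap, and the Th17 points lie near Th0 except for Gata3 (above) and Irf4 (below).

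Gata3 (ENSMUSG00000015619, chromosome 2, positions 9857078 to 9890034, minus strand, build GRCm38) is the master factor of type 2 helper cells. It stood at 29, 22 and 22 normalized counts in the Th9 libraries, against 2, 4 and 3 in the Th0 libraries. The groups did not overlap, as in 19.2% of all genes listed in that table for a rise. The mean was 24.3 ± 4.04 in Th9 and 3.0 ± 1.0 in Th0 (SD, n = 3 each). The log2 fold change was 2.68 (SE 0.40, 95% confidence interval 1.81 to 3.55, limma-trend adjusted p = 4.6e-04). In approximate reads these are 77 against 9, so the Th0 level rests on very few reads. The annotated genes that overlap Gata3 (3 genes: Gm13256, 4930412O13Rik and 9230102O04Rik) were not listed in either table.

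Irf4 (ENSMUSG00000021356, chromosome 13, positions 30749226 to 30766927, plus strand) links antigen receptor signals to the effector programme. Its values were 28, 29 and 21 in Th9, against 11, 2 and 2 in Th0. The groups stayed apart, but Th0 replicate 1 held 11 of the 15 normalized counts of its group. The log2 fold change was 2.49 (SE 0.52, 95% confidence interval 1.35 to 3.63, limma-trend adjusted p = 0.0046), and without Th0 replicate 1 it was 3.16 (adjusted p = 6.3e-06). In Th0 replicates 1 to 3 the leukocyte gene Ptprc stood at 51, 25 and 6 and the antibody heavy chain gene Ighm at 191, 61 and 48, so Th0 replicate 1 was also the Th0 library highest in these genes. Their part in the Irf4 value of that library was not tested.

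Maf (ENSMUSG00000055435, chromosome 8, positions 115682942 to 115707794, minus strand), a basic leucine zipper factor, had 20, 13 and 16 normalized counts in Th9, against 5, 4 and 3 in Th0. The groups did not overlap. Its log2 fold change was 1.79 (SE 0.41, 95% confidence interval 0.90 to 2.69, limma-trend adjusted p = 0.0075). With a mean of 10.2 over the 6 libraries it lay just above the filter, and it fell under the filter when any 1 Th9 library was left out.

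Rora (ENSMUSG00000032238, chromosome 9, positions 68653786 to 69388246, plus strand), a nuclear receptor that many tissues express, had 43, 38 and 28 normalized counts in Th9, against 21, 9 and 6 in Th0. The lowest Th9 library lay above the highest Th0 library, again replicate 1. Its log2 fold change was 1.67 (SE 0.40, 95% confidence interval 0.80 to 2.54, limma-trend adjusted p = 0.0096). The call ended without Th9 replicate 1 (log2 fold change 1.54, adjusted p = 0.0586), and lay between 4.5e-05 and 0.0482 with each other library left out.

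Ikzf2 (ENSMUSG00000025997, chromosome 1, positions 69531214 to 69687245, minus strand), the gene of the Ikaros family zinc finger protein Helios, was the member with the most counts in every library. It stood at 546, 440 and 451 normalized counts in Th9, against 223, 216 and 190 in Th0. The groups were far apart relative to their spread, at 479 ± 58.3 in Th9 and 209.7 ± 17.4 in Th0 (SD, n = 3 each). The log2 fold change was 1.18 (SE 0.11, 95% confidence interval 0.94 to 1.43, limma-trend adjusted p = 1.9e-05), and it kept its call in all 15 alternatives. Of the genes inside or across it, Gm28112, an intronic transcript on the same strand, had 28, 28 and 39 in Th9, against 23, 16 and 13 in Th0, and Gm29112 and the antisense Gm29114 had 12 or fewer in every library.

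Foxp3 (ENSMUSG00000039521, chromosome X, positions 7579676 to 7595243, plus strand), the factor that defines regulatory T cells, had 13, 15 and 24 normalized counts in Th9, against 15, 8 and 11 in Th0. The groups overlapped, and the highest Th9 value came from replicate 3, the Th9 library with the lowest T cell marker sum. Its log2 fold change was 0.57 (95% confidence interval -0.24 to 1.37, limma-trend adjusted p = 0.294), an interval that leaves room for both a fall and a rise. Flicr, a non-coding gene that overlaps Foxp3 on the same strand, had 12, 18 and 15 in Th9, against 14, 5 and 14 in Th0. This overlap is from the GENCODE M21 annotation, where Foxp3 starts at 7573644, before the start given above. It may therefore not hold for the gene as counted. The sources used here do not say if strand entered the counting, so reads of Foxp3 and its overlapping genes may not be fully separated.

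**Figure D2:**
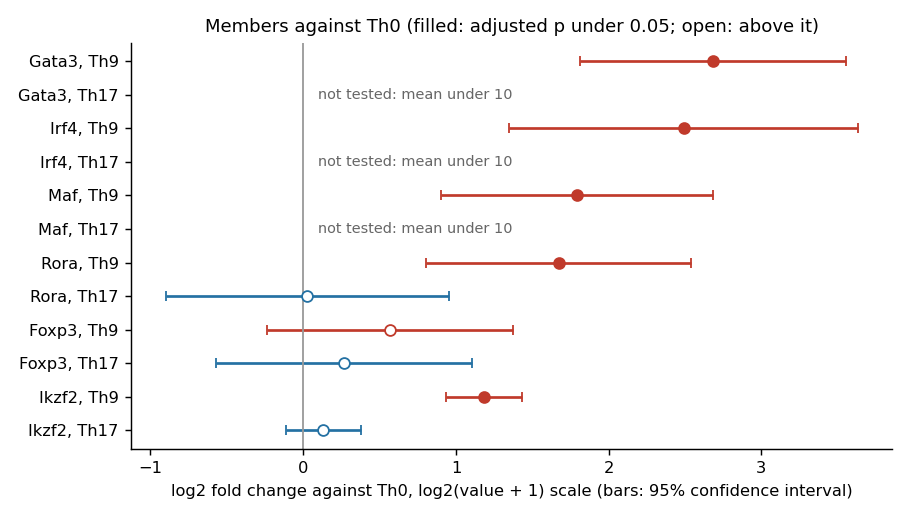
Log2 fold change against Th0 (horizontal axis, log2(value + 1) scale) with 95% confidence intervals for each member with Th9 (red) and with Th17 (blue), filled where the adjusted p was under 0.05. The 5 filled points are all Th9 comparisons, and the 3 tested members of the Th17 comparison (Rora, Foxp3 and Ikzf2) have intervals that include 0.

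With Th17 against Th0, no member was called. Only Rora, Foxp3 and Ikzf2 reached a mean of 10 in the table with Th17, so 3 of 6 members were tested, and none of the 3 had an unadjusted p under 0.05 (0 of 3). The limma-trend test called 1.58% of 14342 genes there (1.19% higher, 0.39% lower). Gata3, Irf4 and Maf had too few reads to be tested in that comparison and are given as values.

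Ikzf2 had 213, 252 and 242 normalized counts in Th17, against 229, 221 and 195 in Th0, and the groups overlapped. Its log2 fold change was 0.13 (95% confidence interval -0.11 to 0.38, limma-trend adjusted p = 0.585), an interval that ends well below the value with Th9. Rora had 12, 10 and 12 in Th17, against 21, 9 and 7 in Th0 (log2 fold change 0.03, 95% confidence interval -0.90 to 0.95, limma-trend adjusted p = 0.983). The Th17 libraries of Rora lay inside the range of Th0. Foxp3 had 12, 20 and 10 in Th17, against 15, 8 and 11 in Th0 (log2 fold change 0.27, 95% confidence interval -0.57 to 1.10, limma-trend adjusted p = 0.765). Intervals as wide as those of Rora and Foxp3 do not show that these genes stayed the same.

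Gata3 had 6, 7 and 8 normalized counts in Th17, against 2, 4 and 3 in Th0. All Th17 libraries lay above all Th0 libraries, as in 10.8% of the genes listed in that table. In approximate reads this was 24 against 9, a ratio per assigned read of 2.37 with a 95% counting interval of 1.06 to 5.79, which covers counting error alone, and with no filter the limma-trend adjusted p was 0.312. Maf, at 3, 4 and 3 in Th17 against 5, 4 and 3 in Th0, lay within the Th0 range.

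Irf4 was almost absent from the Th17 libraries, with 0, 1 and 0 normalized counts in Th17, against 12, 2 and 2 in Th0. Every Th17 library was below every Th0 library, which held for 9.3% of listed genes. The approximate reads were 1 against 14, a ratio of 0.0634 with a 95% counting interval of 0.0015 to 0.417. Th0 replicate 1 gave 10 of those 14 reads. Without it the reads were 1 against 4, with a ratio of 0.15 and an interval of 0.003 to 1.51 that includes 1. With no filter on low values, the limma-trend adjusted p over all 6 libraries was 0.231.

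Both comparisons share the Th0 libraries, and Th9 and Th17 stand in tables normalized separately, so the difference between Th9 and Th17 was not tested. Side by side, Ikzf2 was 2.27-fold of Th0 with Th9 and 1.10-fold with Th17, Rora 3.19-fold and 1.02-fold, and Foxp3 1.48-fold and 1.2-fold.

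Per kilobase of annotated exon (GENCODE M21), levels can be set between genes. The positions of Irf4 and Foxp3 in that annotation differ from those given above, so their exon lengths may differ from those counted. In Th9 the order was Ikzf2 (41.2 ± 5.02 normalized counts per kilobase), Gata3 (6.12 ± 1.02), Irf4 (5.30 ± 0.889), Foxp3 (3.79 ± 1.28), Rora (2.78 ± 0.584) and Maf (1.98 ± 0.426; SD, n = 3 each). In Th17, from the other table, Ikzf2 (20.3 ± 1.74) was followed by Foxp3 (3.06 ± 1.16), Gata3 (1.76 ± 0.251), Rora (0.867 ± 0.0883), Maf (0.404 ± 0.0701) and Irf4 (0.068 ± 0.118). In Th0 the order was Ikzf2 (18.1 ± 1.5), Foxp3 (2.48 ± 0.767), Irf4 (1.02 ± 1.06), Rora (0.918 ± 0.607), Gata3 (0.754 ± 0.251) and Maf (0.485 ± 0.121). Ikzf2 led by a wide margin in every group. Below Ikzf2, every pair of neighbours overlapped within 1 SD in Th9 and in Th0, so their order there is not resolved. In Th17 Foxp3 and Gata3 overlapped in this way, and the steps below Gata3 did not. Those steps rest on 24 (Gata3), 36 (Rora), 11 (Maf) and 1 (Irf4) approximate reads. An SD of 3 such small values may understate counting error, so that order is not taken as resolved either. In bulk RNA, fewer cells of a type and less RNA per cell cannot be told apart.

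Genes that mark T cells rose in the same libraries as the members. In Th9, the tested T cell markers had a median log2 fold change of 3.94, against -0.01 over all genes. Of these 18 markers, 16 were higher and none lower, beside 13.4% and 11.9% of all genes. Several of these passed the filter on low values through the Th9 libraries, so the count is no support. With no filter 20 of 23 were higher, beside 2105 of 18816 genes. Some of these 23, such as Cd3d and Cd3e, were listed with Th9 but not with Th17, so that count is no support either. Summed over the 23 of 24 markers listed there, their level was 1482 to 2058 in Th9, against 120 to 253 in Th0. Cd3g, which encodes the CD3 gamma chain, had 352, 346 and 254 normalized counts in Th9, against 8, 5 and 2 in Th0. In Th17, over the 14 markers listed in that table, the sum was 101 to 119, against 120 to 244 in Th0. Most of that Th17 sum came from Cd5, Ptpn22, Cd247, Cd4 and Cd27, which averaged 22.0, 17.7, 17.0, 12.3 and 12.3 in Th17, against 32.7, 19.3, 22.7, 12.7 and 17.3 in Th0. Zap70 averaged 0.333 in Th17 and 2.33 in Th0, and Cd3d, Cd3e, Trac, Trbc1 and Trbc2 were not listed in that table. There Cd3g was at 0, 1 and 0 in Th17, against 8, 5 and 2 in Th0, and Ptprc at 8, 7 and 1 in Th17, against 52, 25 and 7 in Th0. Cd4 itself, the gene of the protein used for the sort, had 23, 23 and 17 in Th9, against 10, 8 and 18 in Th0 (limma-trend adjusted p = 0.114).

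Ikzf2 was read in Th17 libraries in which Cd3g was at or near 0: these libraries held 213 to 252 normalized counts of Ikzf2 with at most 1 of Cd3g. The 14 T cell markers listed for Th17 still summed to 101 to 119 there. Rora (10 to 12), Foxp3 (10 to 20) and Gata3 (6 to 8) were also read in these Th17 libraries, whereas Irf4 was at 0 in 2 of them. Among Th0 replicates 1 to 3 of the table with Th9, Ikzf2 was at 223, 216 and 190. There Ptprc was at 51, 25 and 6, Cd5 at 34, 29 and 32 and Cd4 at 10, 8 and 18, so the T cell markers did not run alike. The part of T cells in the Ikzf2 values was not tested. No library of LLC1 cells alone is used here, so the level of any member in LLC1 cells by themselves was not measured.

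The members were also set against the summed level of the 14 T cell markers listed in both tables. This sum was 1262 to 1706 in Th9, against 115 to 237 in Th0. A member that rose by less than the sum is lower per marker count by construction, so the ratios only describe. Per 100 marker counts, Irf4 stood at 1.64, 1.94 and 1.66 in Th9, against 4.64, 1.48 and 1.74 in Th0, and Gata3 at 1.70, 1.47 and 1.74 in Th9, against 0.844, 2.96 and 2.61 in Th0. These ratios overlapped between the groups. Ikzf2 stood at 32.0, 29.4 and 35.7 in Th9, against 94.1, 160 and 165 in Th0. Rora had 2.52, 2.54 and 2.22 in Th9, against 8.86, 6.67 and 5.22 in Th0. Maf (0.868 to 1.27 in Th9, 2.11 to 2.96 in Th0) and Foxp3 (0.762 to 1.90 in Th9, 5.93 to 9.57 in Th0) were likewise lower per marker count in Th9. With Th17, Gata3 per 100 marker counts was 5.45, 6.93 and 6.72 in Th17, against 0.82, 2.90 and 2.50 in Th0, and these groups did not overlap. Ikzf2 stood at 194 to 249.5 in Th17, against 93.9 to 162.5 in Th0, also without overlap, although its own values overlapped. The marker sum was 101 to 119 in Th17, against 120 to 244 in Th0. A gene at the same level in both is thus higher per marker count with Th17 by construction. The share of all genes whose ratios do not overlap was not worked out. Among the Th9 libraries, the marker sum was highest in replicate 1 and lowest in replicate 3, and of the 6 members Rora alone ran in that order. Irf4 was highest in replicate 2, Maf and Ikzf2 were lowest there, Gata3 was the same in replicates 2 and 3, and Foxp3 ran the other way. Such orders rest on small differences, as 28 against 29 for Irf4, 13 against 16 for Maf and 440 against 451 for Ikzf2. They are within reach of counting error and are not taken as resolved. The part of T cells left after the sort in each rise was not tested.

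**Figure D3:**
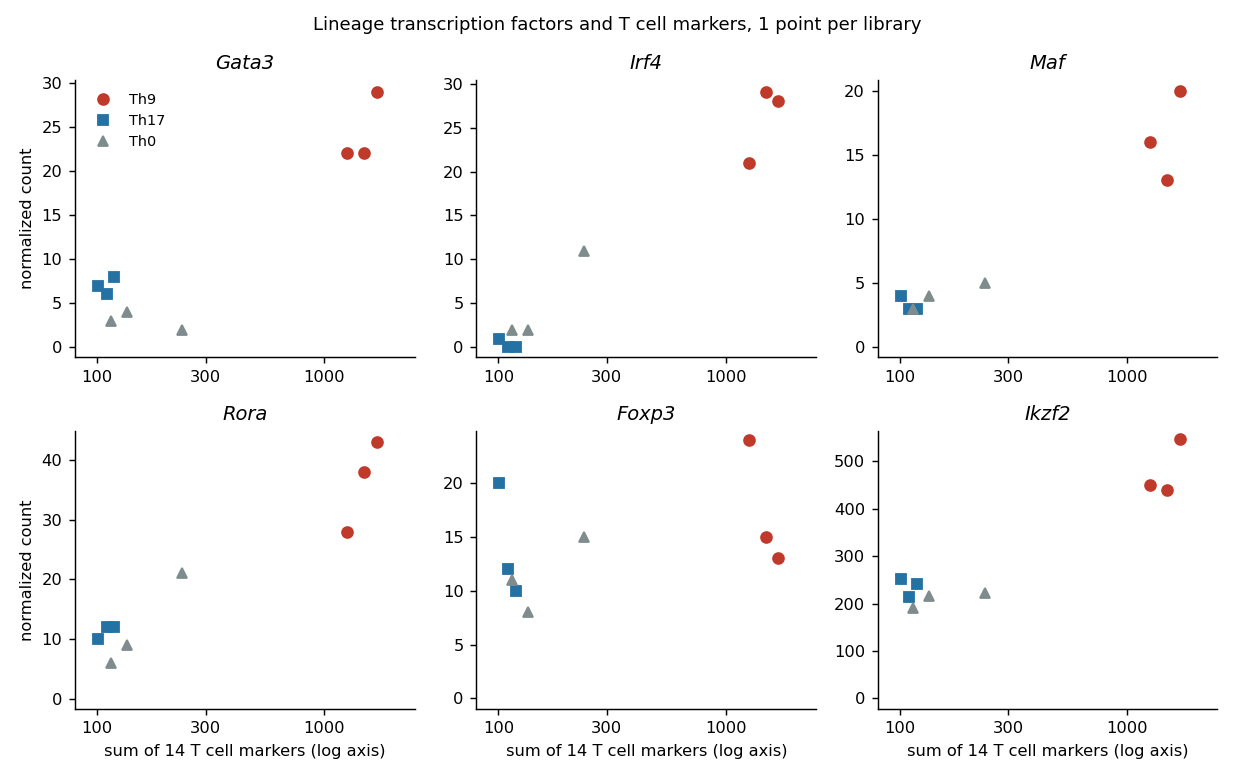
Normalized count of each member (vertical axis) against the sum of 14 T cell markers (horizontal axis, log scale), 1 point per library, with Th9 (red circles) and Th0 (grey triangles) from the table with Th9 and Th17 (blue squares) from the table with Th17. The Th9 libraries stand at the right, from 1262 to 1706, and Ikzf2 is near 200 at the left, where the marker sums are 101 to 237.

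The other lineage factors, a list of 35 genes, also moved with Th9. Of 28 tested with Th9 against Th0, 17 were higher and 2 lower, beside 13.4% and 11.9% of all genes. The median log2 fold change was 0.54, against -0.01 over all genes. Without Th0 replicate 1 the counts were 17 and 3, beside 2594 and 2742 of 14366 genes. Some of the genes called higher, such as Satb1, Ikzf3, Runx3 and Stat4, averaged under 10 in Th0. They passed the filter on low values only through the Th9 libraries, so the count is no support. Satb1, the chromatin organiser of thymocytes, had 300, 227 and 174 normalized counts in Th9, against 14, 6 and 7 in Th0 (log2 fold change 4.6, limma-trend adjusted p = 9.1e-07). Lef1, a factor of the Wnt pathway in naive T cells, had 199, 183 and 132 in Th9, against 24, 15 and 17 in Th0 (3.14, adjusted p = 2.2e-06). Its partner Tcf7 had 434, 392 and 318 in Th9, against 117, 110 and 118 in Th0 (1.71, adjusted p = 2.8e-06). Ikzf3 (Aiolos), a relative of Ikzf2, had 73, 48 and 63 in Th9, against 11, 9 and 9 in Th0 (2.53, adjusted p = 3.8e-05). In Satb1, Lef1, Tcf7 and Ikzf3 the groups did not overlap, as in 21.4% of all tested genes for a rise. Id3 and Stat6 were the 2 that fell, by 0.63 and 0.35 on the log2 scale. Id3 kept its call with each library left out, whereas Stat6 lost it without any 1 library other than Th0 replicate 1 (limma-trend adjusted p 0.0676 to 0.122) and with the same total per library (0.266). With Th17 none of 21 tested was called by limma-trend (0 higher, 0 lower), and 6 had an unadjusted p under 0.05, beside 18.3% of all genes. Without Th0 replicate 1 the same test called 1 higher and 3 lower with Th17, and array weights called 2 higher and 3 lower. Over all genes these settings called 974 higher and 1378 lower of 14209, and 1572 higher and 1789 lower of 14342. The list counts are therefore not read as a result about these factors.

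**Figure D4:**
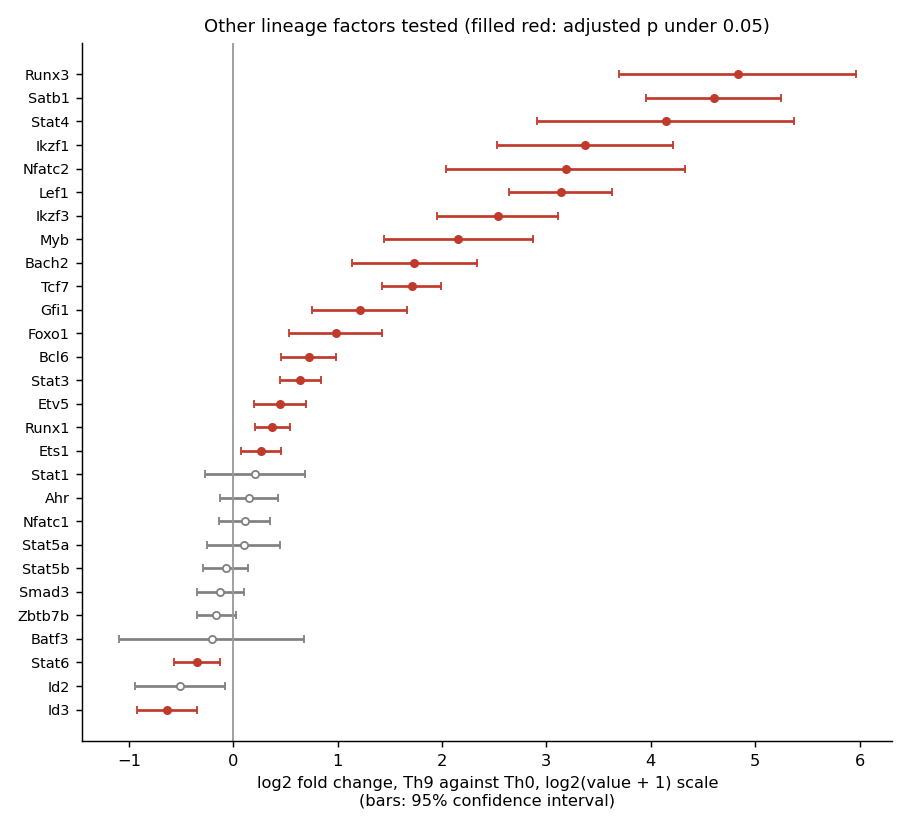
Log2 fold change of Th9 against Th0 (horizontal axis, log2(value + 1) scale) with 95% confidence intervals for the 28 tested genes of the list of other lineage factors, ordered by size and filled red where the adjusted p was under 0.05. The 17 genes called higher stand at the top, led by Runx3, Satb1 and Stat4, and Id3 and Stat6 are the 2 called lower.

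Some genes tied to single subsets were not listed. Tbx21 (T-bet, of Th1 cells) and Spi1 (PU.1, linked to Th9 cells) were not listed for either comparison. Of 24 lineage cytokine and receptor genes, 11 were not listed in the table with Th9, among them Il9, Il5, Il13, Il21, Il17a, Il22, Ifng, Il2, Ccr6 and Il23r. A gene that is not listed has no value here, and no level is given for it. Of the 7 tested, 2 were called higher and 0 lower, beside 13.4% and 11.9% of all genes. Il1rl1, the interleukin 33 receptor that GATA3 is known to raise in type 2 cells, had 657, 582 and 568 in Th9, against 251, 285 and 265 in Th0 (log2 fold change 1.17, limma-trend adjusted p = 7.3e-06). Il12rb2 had 50, 49 and 45 in Th9, against 14, 6 and 22 in Th0 (1.87, adjusted p = 0.0036). Il4, Il4ra, Il1r1, Il12rb1 and Il17rb were not called, and Il4 had 23, 19 and 16 in Th9, against 15, 18 and 23 in Th0. Il17f, too low to be tested, had 2, 10 and 7 in Th9, against 10, 7 and 9 in Th0. In Th17 Il17f had 8, 4 and 12, against 11, 7 and 9 in Th0. Il1rl1 was at 276, 269 and 280 in Th17, against 258, 292 and 272 in Th0, so that it too was read in libraries with at most 1 count of Cd3g. In those libraries the 14 T cell markers summed to 101 to 119.

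Among genes of regulatory T cells other than Foxp3 and Ikzf2, 4 of 9 tested were higher with Th9 and 1, Nrp1, was lower. Over all genes, 13.4% were called higher and 11.9% lower. The median log2 fold change was 0.38, against -0.01 over all genes. The 4 averaged 0.333 to 4.33 in Th0 and passed the filter on low values only through the Th9 libraries, so their count is no support. Nrp1 had 252, 269 and 268 normalized counts in Th9, against 277, 415 and 387 in Th0, and its call (limma-trend adjusted p = 0.0398) was lost without any 1 library other than Th0 replicate 1 (0.0959 to 0.141). Il2ra, the high-affinity chain of the interleukin 2 receptor, had 256, 233 and 174 in Th9, against 5, 4 and 1 in Th0 (log2 fold change 5.81, limma-trend adjusted p = 8.8e-07). Ctla4 had 129, 105 and 87 in Th9, against 11, 0 and 2 in Th0 (5.01, adjusted p = 2.0e-04). Icos (4.71) and Il2rb (4.30) were the other 2 that rose. Activated T cells of any subset express these 4 genes too, and the cells that gave these counts were not tested. Tnfrsf18, at 35, 44 and 33 in Th9 against 44, 22 and 23 in Th0, did not pass (limma-trend adjusted p = 0.367).

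Several relatives of the members were read at far higher levels per kilobase than the members. Gata2 stood at 120 ± 2.74 normalized counts per kilobase in Th9 and 125 ± 12.1 in Th0, far above Gata3, and was not called (log2 fold change -0.05, limma-trend adjusted p = 0.753). Foxp4 (217 ± 18.7 in Th9, 210.4 ± 4.06 in Th0) and Foxp1 (119.7 ± 2.59 in Th9, 100.1 ± 14.2 in Th0) stood far above Foxp3, and the small MAF gene Mafg (372 ± 16.4 in Th9, 314 ± 18.4 in Th0) far above Maf. Mafg was called higher with Th9, at 1.18-fold (limma-trend adjusted p = 0.0476), a call lost without any 1 library other than Th0 replicate 1 (0.0578 to 0.22), while Foxp1 (0.0747) and Foxp4 (0.755) were not. In the Ikaros family, Ikzf2 exceeded Ikzf1, which had 13.8 ± 3.60 per kilobase in Th9 and 1.27 ± 0.655 in Th0, and Ikzf3, at 7.01 ± 1.44 in Th9 and 1.10 ± 0.132 in Th0.

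Of 19 relatives tested with Th9, 6 were higher and none lower (median 0.21), beside 13.4% higher and 11.9% lower over all genes. Of the relatives called higher, Ikzf1 and Ikzf3 averaged under 10 in Th0 and passed the filter only through the Th9 libraries. The count was 8 higher and 1 lower without Th0 replicate 1, but 3 higher when Th0 replicate 3 was left out, and likewise for replicate 1 or 2 of Th9. Ikzf3, Ikzf1 (95, 88 and 56 normalized counts in Th9, against 10, 9 and 3 in Th0, log2 fold change 3.37), Irf8 (55, 55 and 42 in Th9, against 22, 16 and 16 in Th0, 1.45) and Gata6 (89, 100 and 72 in Th9, against 56, 57 and 51 in Th0, 0.65) had the smallest adjusted p. The Gata6 call was lost when Th0 replicate 3 was left out, or replicate 1 or 2 of Th9 (limma-trend adjusted p 0.0653 to 0.107). In Th17 the lymphoid relatives were low, with Ikzf1 at 4, 2 and 3 in Th17, against 11, 9 and 3 in Th0, and Ikzf3 at 1, 1 and 0 in Th17, against 12, 9 and 9 in Th0. None of 16 relatives was called by limma-trend with Th17 (0), and 2 had an unadjusted p under 0.05, beside 18.3% of all genes. Without Th0 replicate 1, and with the replicate block or array weights, 1 relative was called lower with Th17. Over all genes these settings called 1378, 76 and 1789 lower.

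**Figure D5:**
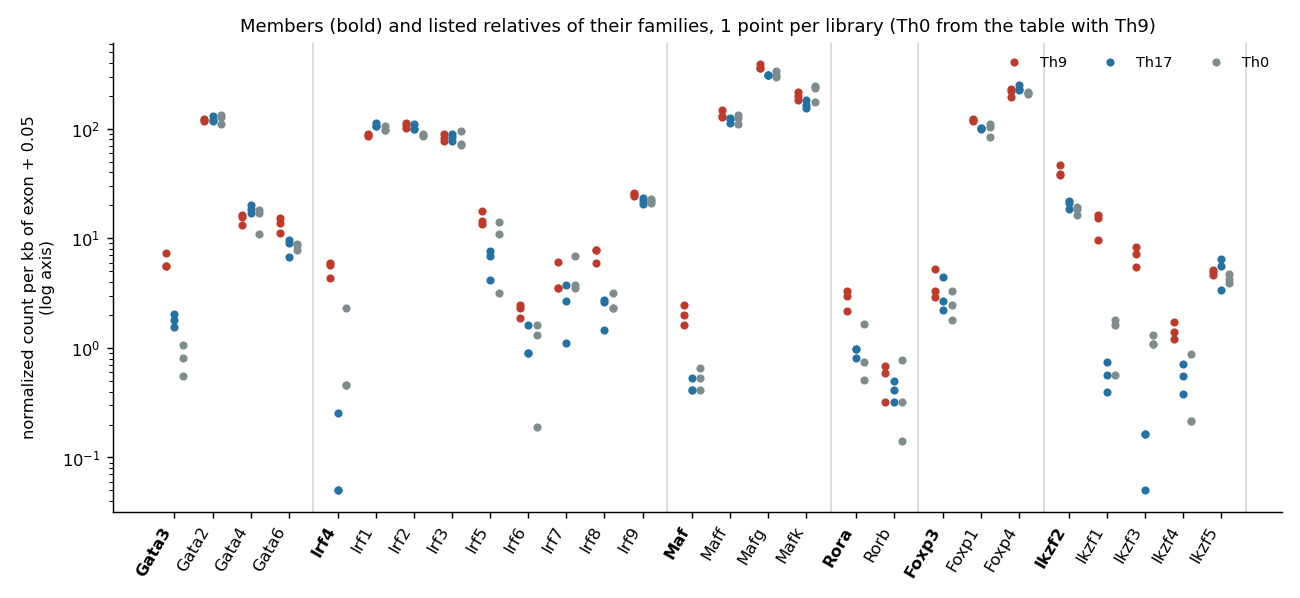
Normalized count per kilobase of exon plus 0.05 (vertical axis, log scale) of the members (bold) and the listed relatives of their families, 1 point per library, for Th9 (red) and Th0 (grey) from the table with Th9 and Th17 (blue) from the table with Th17. Gata2, Irf1 to Irf3, the small MAF genes, Foxp1 and Foxp4 lie above 70 in all groups, whereas Gata3, Irf4, Maf, Rora and Foxp3 stay under 10.

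The genes whose values ran most alike over the 9 libraries differed between the members. For each member, log2(value + 1) was centred on Th0 of its own table and compared by Pearson r with 11787 genes, as a description, since the 9 points share groups and T cell content. Irf4 ran with the lymphocyte genes Cd52 (r = 0.991) and Gimap8 (0.985). Cd52 had 50, 40 and 25 in Th9, against 10, 2 and 1 in Th0, and 0, 1 and 0 in Th17. Gata3 was closest to Itga6 (0.992) and Tmem131 (0.992), Maf to Zc3h12a (0.996) and Inpp4b (0.993), Rora to Slc27a1 (0.988) and Atg9b (0.981) and Ikzf2 to Slc12a4 (0.994) and Adamts6 (0.992). Foxp3 had weaker matches, Cmas (0.901) and Immp2l (0.891). An r above 0.9 was common for Gata3 (5.28% of genes), Ikzf2 (5.31%) and Maf (4.65%), rarer for Irf4 (1.77%) and Rora (1.74%), and reached by 1 gene for Foxp3.

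Markers of other blood cells moved in part with the groups. B and plasma cell genes summed to 1121 to 1186 in Th9, against 1336 to 1352 in Th0, over 13 of 14 listed, of which Sdc1 alone gave 944 to 1029 in Th9 and 855 to 1170 in Th0. Ighm was at 4, 2 and 2 in Th17, against 196, 63 and 49 in Th0 (log2 fold change -4.59, limma-trend adjusted p = 0.0029), and Igkc at 1, 0 and 3 in Th17, against 47, 15 and 11 in Th0 (-3.39, adjusted p = 0.0338). Without Th0 replicate 1 Igkc fell under the filter, and without any other single library its limma-trend adjusted p was 0.0575 to 0.143. Igkc and Ebf1 were the 2 of 8 tested B cell genes that fell with Th9, by 2.66 and 1.26 on the log2 scale, beside 11.9% of all genes. Igkc averaged 2.67 in Th9 and 24 in Th0, so it passed the filter on low values only through Th0. Ighm had 75, 68 and 67 in Th9, against 191, 61 and 48 in Th0, and was not called. Ebf1 had 54, 34 and 37 in Th17, against 56, 31 and 35 in Th0, and the groups overlapped. IRF4 is known from plasma cells, and the Irf4 value of Th17 was low in the same libraries as Ighm, but their relation was not tested. Myeloid and dendritic cell genes summed to 630 to 715 in Th9, against 616 to 885 in Th0, with the monocyte gene Itgam and the macrophage gene Adgre1 not listed. In Th9, 2 of 9 tested were higher (Cd14 and Flt3) and 2 lower (Lyz2 and Clec9a), beside 13.4% and 11.9% of all genes. Lyz2 fell under the filter, and so was not tested, without Th0 replicate 1 or Th0 replicate 2. Cd14 lost its call without Th0 replicate 3, Flt3 and Cd14 each without Th9 replicate 1 or 2, and Clec9a without Th0 replicate 2 or either of those Th9 replicates (limma-trend adjusted p 0.0537 to 0.159).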

How the data were processed

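RNA of 9 co-cultures was sequenced, per the labels' protocols from 1 stranded total RNA kit. The tools, per the submitters' processing notes, were STAR 2.4.0a, featureCounts 1.4.5-p1 (Subread) and DESeq2 1.62, and mm10 and GRCm38 the builds, with no roles stated. The 2 deposited tables hold rounded scores: the authors' counts divided by a size factor, as the values show: each column steps as whole reads over 1 factor. No per-sample column was left unused (0). Approximate reads are value times that factor.

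Each table was fitted by limma-trend (limma 3.58.1, R 4.3.3) on log2(value + 1) with group alone in the model. Genes whose 6 libraries averaged 10 or more were tested, and p-values adjusted over all of them (Benjamini-Hochberg). This was tested on simulated data. Fold changes of low genes are understated on this scale. Counting intervals are 95% exact conditional binomial and cover counting error only.

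The members and lists were chosen with earlier results of these data known. Named were the members, up to 4 called genes of each list with the smallest adjusted p, unlisted genes, and the 2 most alike genes per member. Other named genes were chosen after their values were seen: Ptprc, Cd4, Vim, Krt18, Sdc1, Id3, Stat6, Nrp1, Cd5, Ptpn22, Cd247, Cd27, Zap70, Runx3, Stat4, Tnfrsf18, Gata2, Foxp1, Foxp4, Mafg, Il4, Il4ra, Il1r1, Il12rb1, Il17rb, Il17f, Irf1 to Irf3 and genes that overlap members. Alternatives changed the pseudocount, filter, scaling, weights, trend and block, or left out 1 library.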

Additional observations from a re-analysis of the deposited data

Results flagged for a closer look

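In 4 named genes every Th9 library lay above every Th0 library and every Th17 library lay below every Th0 library of its own table, as in 0.899% of the 18022 genes listed in both tables. These 4 are among the members and the named genes of the lists, which were not drawn at random. In none of them was the difference between both comparisons tested, since the tables were normalized separately and share Th0. Irf4 averaged 26 normalized counts in Th9 and 0.333 in Th17, against 5 and 5.33 in Th0 of each table. Satb1 averaged 233.7 in Th9 and 2.0 in Th17, against 9.0 and 9.67 in Th0. Ikzf3 averaged 61.3 in Th9 and 0.667 in Th17, against 9.67 and 10 in Th0. Cd3g averaged 317 in Th9 and 0.333 in Th17, against 5.0 in Th0 of both tables. For Irf4, Th0 replicate 1 gave 10 of the 14 approximate Th0 reads, and without it the counting interval of the Th17 to Th0 ratio was 0.003 to 1.51.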

How the results depend on the processing

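With Th9, 5 members were called in 11 of the alternatives that could test all 6, and the only member with a mean of at least 50 was called too (1 of 1). With 1 library left out, 3 to 5 were called. Maf then fell under the filter without any Th9 library, and Rora lost its call without Th9 replicate 1. A pseudocount of 10 lowered the log2 fold changes with Th9 to 1.4 for Gata3, 1.31 for Irf4, 0.91 for Maf and 1.12 for Rora, which is by construction. With Th17 no member was called in any alternative (0). Rora with Th17 turned to -0.016 at that pseudocount and ran from -0.27 to 0.46 with 1 library left out, and Foxp3 from -0.0050 to 0.47.

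The count of all genes called with Th9, 3653, was 6628 with array weights, 2413 without the trend and 1853 to 5336 with 1 library left out. With Th17, 226 became 3361, 0 without the trend, 139 at the same total, 447 at the same total without mt-Rnr1, mt-Rnr2 and Gm26917, 385 at the same upper quartile and 16 to 2352 with 1 library left out, where 2352 is without Th0 replicate 1. The same total per library moved the median log2 fold change with Th9 to 0.10 over all genes, against -0.01, and the calls to 2252 higher and 794 lower, against 1937 and 1716. With Th17 it gave 119 and 20, against 170 and 56. The cause was not tested. The replicate block gave 4076 and 262 calls over all genes and left the members' calls at 5 and 0. Deviations of same-numbered libraries correlated weakly at most (r of -0.01 to 0.15 with Th9, -0.08 to 0.04 with Th17). Th9 replicates 1 and 3 and Th17 replicate 3 correlated best with the Th0 library of their own number, and the others did not. Ighm with Th17 lost its call without the trend (adjusted p = 0.0712). Depth limits Gata3, Irf4 and Maf in Th0 and Th17, at 1 to 24 approximate reads per group.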

Other observations

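Genes of NK cells and of gamma-delta T cells were higher in Th9 as well. Of 6 listed, 4 were tested and called higher, but these 4 passed the filter on low values through the Th9 libraries, so their count is no support (13.4% of all genes were called higher). Trdc, which encodes the constant part of the delta receptor chain, had 145, 101 and 77 normalized counts in Th9, against 2, 3 and 0 in Th0 (log2 fold change 5.52, limma-trend adjusted p = 9.5e-06). Tcrg-C1, a constant gene of the gamma chain, had 33, 28 and 29 in Th9, against 2, 0 and 1 in Th0. Klrk1 had 37, 29 and 14 and Klrd1 28, 25 and 16 in Th9, against at most 2 in any Th0 library. Ncr1 and Klrb1c, which mark NK cells, were not listed. In Th17 the list's single listed gene, Prf1, had 2, 4 and 4, against 5, 5 and 2 in Th0, and with Th9 it had 1, 2 and 2, against 5, 5 and 2 in Th0, too few to be tested.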
